A study of Mus musculus with 4 samples.

Results

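The genes described here code for the gamma subunits of heterotrimeric G proteins, and their mRNAs were followed in the medial prefrontal cortex (mPFC) of control and stressed mice. The members were the rows of the expression table named Gng2, Gng3, Gng4, Gng5, Gng7, Gng8, Gng10, Gng11, Gng12 and Gng13, which makes 10 of the 17778 genes listed. The genes were taken by name, as a family, with earlier results of these data known. All 10 members were found, and all 10 passed a minimum of 0.5 RPKM in at least 1 group. RPKM is the number of reads divided by gene length and by library size, so that levels of genes of different length can be set side by side.

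A G protein couples a receptor at the cell surface to targets inside the cell. Its alpha subunit binds GTP, and its beta and gamma subunits form a tight dimer that acts on targets of its own, among them GIRK potassium channels, adenylyl cyclases, phospholipase C beta and the receptor kinase GRK2. The gamma subunit is a small protein that carries a lipid anchor at a cysteine near its end, a farnesyl group in Gng11 and in the retinal gamma subunits and a geranylgeranyl group in the other members. Neurons use several gamma subunits at once, and these differ in the receptors and alpha subunits with which they are found.

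The mice were C57BL/6 males (C57BL/6J in the methods of the study), juvenile at the start, and the tissue was the mPFC of both hemispheres. Mice of the CUMS group (2 libraries) had lived for weeks under chronic unpredictable mild stress, and were used only if their sucrose preference, Y-maze stay and forced swimming had all turned depression-like, so that stressed mice without such changes are not represented. Mice of the Control group (2 libraries) had no such stress, and tissue of both groups was taken a day after the tests. The table holds 1 mean RPKM per gene and group, which the authors had averaged over the 2 libraries.

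No value of a single mouse or library could therefore be shown, and no difference below was tested against the spread between mice. In its place each value has an exact 95% interval for counting error, Poisson for a level and Clopper-Pearson for a ratio. The intervals rest on an estimated depth of 7385524 counted fragments in each Control library and 7440476 in each CUMS library. This estimate is below the number of reads that the study gives. Greater depth would narrow the intervals, so that whether the interval of a small ratio includes 0 depends on the estimate. A ratio is the log2 of CUMS divided by Control, so that a negative ratio means a lower level in CUMS. A gene was counted as past the threshold when its means differed by more than 1.5-fold, without a test. The median ratio was -0.02 over the 14257 genes that passed the minimum of 0.5 RPKM. All 10 neocortical excitatory neuron markers were measured, led by the vesicular glutamate transporter Slc17a7 with 635 RPKM in Control and 791 in CUMS.

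Gng4 was the only member past 1.5-fold, and its promoter sequences are printed for that reason. Gng4 lies on the plus strand of chromosome 13 at chr13:13784059-13827895 (GRCm38.p6), and RefSeq gives it 2 transcript starts, at 13784059 and 13784307. Each window spans 250 bases before to 50 bases after the start, written 5′ to 3′ on the plus strand, and the windows, which overlap at their ends, cover chr13:13783809-13784108 for the first start and chr13:13784057-13784356 for the second. Capitals mark the GC box GGGCGG, a sequence that Sp1-type factors bind, and other letters are in lower case.
Gng4 first start: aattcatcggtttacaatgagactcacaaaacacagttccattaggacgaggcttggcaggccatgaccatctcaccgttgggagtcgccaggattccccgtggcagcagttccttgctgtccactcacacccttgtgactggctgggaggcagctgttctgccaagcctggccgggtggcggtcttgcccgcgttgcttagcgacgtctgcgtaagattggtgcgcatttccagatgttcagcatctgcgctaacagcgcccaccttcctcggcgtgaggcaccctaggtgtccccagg
Gng4 second start: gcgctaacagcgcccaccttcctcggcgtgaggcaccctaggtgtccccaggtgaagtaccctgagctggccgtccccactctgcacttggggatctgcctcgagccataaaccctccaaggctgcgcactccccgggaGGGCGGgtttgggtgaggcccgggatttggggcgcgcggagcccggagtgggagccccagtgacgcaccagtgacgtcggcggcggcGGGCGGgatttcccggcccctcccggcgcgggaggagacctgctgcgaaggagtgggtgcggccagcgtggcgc

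The first window held no match to any of the 5 motifs searched, and the second held 2 GC boxes. The first window had 17 CpG dinucleotides and 58.3% GC, and the second had 29 and 71.3%, against a median of 7 CpG and 52.7% GC in 32851 RefSeq windows of 300 bases. Motifs were searched on both strands, and the GC box occurred in 35.7% of all windows. The other motifs were the cyclic AMP response element TGACGTCA (in 1.79% of all windows), the E-box CACGTG (7.15%), the TATA sequence TATAAA (13.6%) and the homeodomain core TAATTA (5.29%). RefSeq gave 13 windows for 9 members and none for Gng11. The cyclic AMP response element, TATA sequence and homeodomain core were in 0 of these 13 windows, and the E-box was in 1, at the second start of Gng7. CpG numbers ran from 2 at Gng3 to 52 at Gng5. A match describes letters only, and the motifs were chosen after the expression values had been seen.

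The other members are spread over the genome (GRCm38.p6). Gng7 lies at chr10:80948624-81014925, Gng3 at chr19:8836929-8839246 and Gng2 at chr14:19872558-19977825, all on the minus strand. On the plus strand lie Gng10 at chr4:59035156-59041899, Gng13 at chr17:25717172-25719102 and Gng5 at chr3:146499836-146505543. Gng12 at chr6:66896397-67021361 and Gng11 at chr6:4003987-4008445 share a chromosome but not a neighbourhood, and Gng8 lies at chr7:16891737-16895451, all on the plus strand.

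The gamma subunits differed more than 100-fold in level. In Control the order from high to low was Gng7, Gng3, Gng2, Gng4, Gng10, Gng13, Gng5, Gng12, Gng11 and Gng8. The counting intervals of Gng7 and Gng3 overlapped, as did those of Gng4 and Gng10, Gng10 and Gng13, and Gng13 and Gng5, so that these neighbours could not be ordered beyond counting error. In CUMS the order was Gng3, Gng7, Gng2, Gng10, Gng13, Gng5, Gng4, Gng12, Gng11 and Gng8. Only Gng2 and Gng10, and Gng10 and Gng13, overlapped as neighbours in CUMS. Gng4 stood at place 4 in Control and at place 7 in CUMS.

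**Figure D1:**
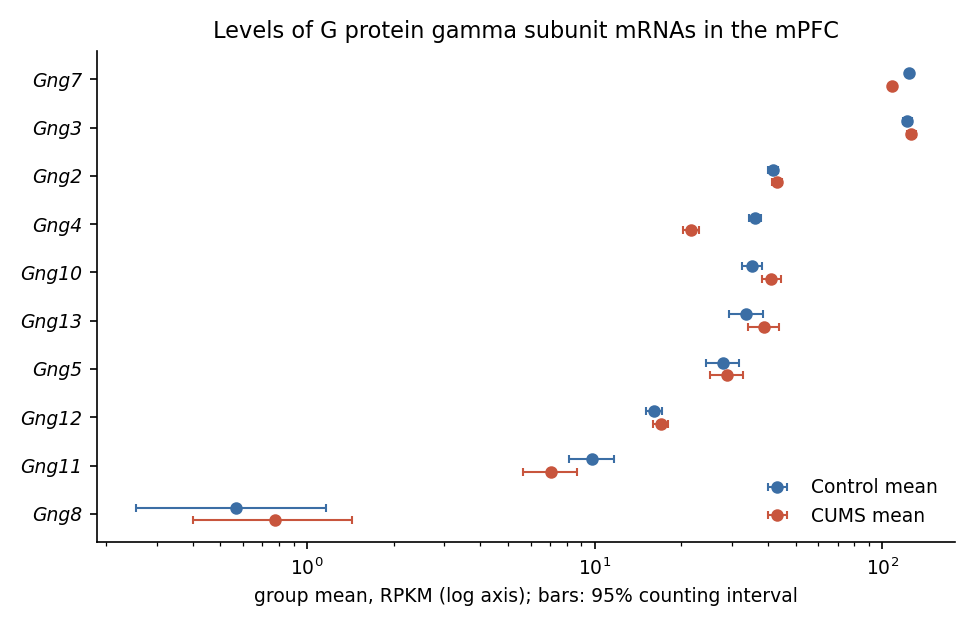
Group mean of each gamma subunit gene in RPKM on a log axis, in Control (blue) and CUMS (red), with bars for the exact 95% counting interval of each mean. Gng4 has 36.2 RPKM in Control and 21.6 in CUMS with separate bars, Gng7 is also separate, and the bars of Gng8 span most of its level.

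Gng7, Gng3, Gng2 and Gng4 are the members best known from neurons, and they were the most abundant members in Control. Gng4 had 36.2 RPKM (34.4 to 38.0) in Control and 21.6 RPKM (20.3 to 23.0) in CUMS, from an estimated 1591 and 957 fragments. The groups did not overlap within counting error. The level in CUMS was 1.67-fold lower, a log2 ratio of -0.74 (-0.86 to -0.63). Among the 9397 genes that reached 5 RPKM in Control or CUMS, 60 had a lower ratio, and Gng4 was in place 61 from the bottom.

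Gng7 is the gamma subunit that joins the olfactory-type alpha subunit Gnal and the adenylyl cyclase Adcy5 in striatal neurons. It had 124 RPKM (121 to 127) in Control and 108 RPKM (106 to 111) in CUMS. The groups did not overlap within counting error, yet the difference was small, with a ratio of -0.20 (-0.25 to -0.15). Of the genes of at least 5 RPKM, 13% had a lower ratio than Gng7, so that its place was far less marked than that of Gng4. The difference of CUMS minus Control was -15.9 RPKM in Gng7 and -14.6 RPKM in Gng4.

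Gng3, a gamma subunit found in most neurons, had 122 RPKM (118 to 127) in Control and 126 RPKM (122 to 131) in CUMS. Its ratio was 0.05 (-0.03 to 0.12), and the groups overlapped. Gng2, which is also widely used in the brain, had 41.7 RPKM (40.0 to 43.4) in Control and 43.2 RPKM (41.5 to 45.0) in CUMS. Its ratio was 0.05 (-0.03 to 0.14), and the groups overlapped here too. Gng2 is the member whose coding sequence is closest to that of Gng4, with identical bases at 73.3% of the longer sequence. The level of Gng4 relative to Gng2 went from 0.868 in Control to 0.50 in CUMS.

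Gng5, Gng10 and Gng12 are expressed in many tissues. Gng10 had 35.3 RPKM (32.5 to 38.3) in Control and 41.2 RPKM (38.1 to 44.4) in CUMS, and its ratio of 0.22 (0.06 to 0.38) was the only one of the 10 whose interval lay above 0. The intervals of its levels nevertheless touched. Gng5 had 28.0 RPKM (24.4 to 31.9) in Control and 28.8 RPKM (25.2 to 32.7) in CUMS, a ratio of 0.04 (-0.23 to 0.31). Gng12 had 16.1 RPKM (15.1 to 17.1) in Control and 17.0 RPKM (16 to 18.0) in CUMS, a ratio of 0.08 (-0.05 to 0.20). Both groups overlapped in Gng5 and in Gng12.

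Gng13 and Gng8 are known from sensory cells, Gng13 from taste, olfactory and retinal cells and Gng8 from olfactory and vomeronasal neurons. Gng13 had 33.7 RPKM (29.4 to 38.5) in Control and 38.8 RPKM (34.2 to 43.9) in CUMS, and its ratio of 0.20 (-0.06 to 0.47) included 0. Gng8 was near the bottom of the measured range, with 0.565 RPKM (0.254 to 1.16) in Control and 0.775 RPKM (0.401 to 1.44) in CUMS. These levels rest on an estimated 8 and 11 fragments, and the ratio of 0.46 (-1.0 to 1.97) could not be told from 0 at this depth. Gng11, the farnesylated member and one known from endothelial cells, had 9.83 RPKM (8.15 to 11.7) in Control and 7.06 RPKM (5.66 to 8.67) in CUMS. Its level was 1.39-fold lower in CUMS, short of the threshold. The intervals of the levels overlapped, while that of the ratio of -0.48 (-0.89 to -0.07) lay under 0.

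**Figure D2:**
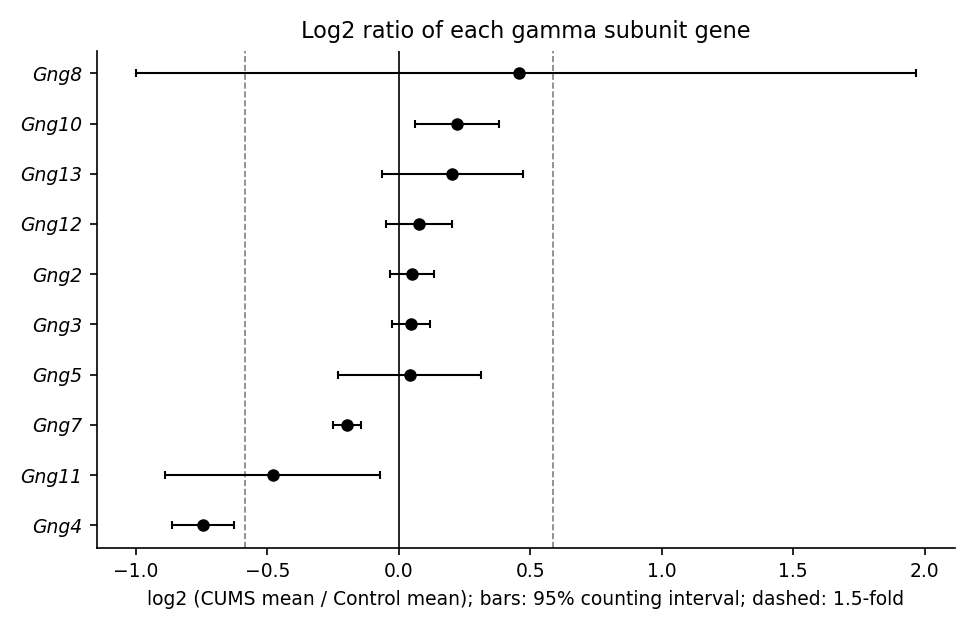
Log2 ratio (CUMS over Control) for each gamma subunit gene, with bars for the exact 95% counting interval and dashed lines at 1.5-fold. Gng4 at -0.74 is the only point beyond a dashed line, and the intervals of Gng4, Gng7 and Gng11 lie under 0.

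Of the 10 members, 3 had a lower mean in CUMS (Gng4, Gng7 and Gng11) and 7 had a higher one. Over the 14257 genes of at least 0.5 RPKM, 53.2% were lower. The median ratio of the members was 0.05, but it was -0.20 over the 5 members that share little sequence with other genes (Gng4, Gng7, Gng8, Gng11 and Gng12), a choice made after the values had been seen. Past 1.5-fold lay 1 member that was lower, Gng4, and 0 that were higher. Of all genes of at least 0.5 RPKM, 4.42% were lower by more than 1.5-fold and 2.78% were higher. Among the genes of at least 5 RPKM, to which 9 members belong, 1.28% were lower and 0.319% were higher by that fold. The counting interval lay under 0 in 3 members and above 0 in 1, against 16.8% and 12.5% of all genes of at least 0.5 RPKM. With 4 times the estimated fragments the interval lay above 0 in 5 members (Gng2, Gng3, Gng10, Gng12 and Gng13), and under 0 in the same 3. The shares of all genes at that depth were not computed, and greater depth narrows every interval. These counts therefore say nothing particular about the members. At 2-fold no member was past the threshold, against 1.56% of all genes lower and 0.898% higher. At a ratio of 5 to 4, Gng4 and Gng11 were lower and Gng8 was higher, against 11.3% of all genes lower and 7.62% higher. The median size of a member's ratio, with its sign left out, was 0.20, against 0.13 in those genes. The interval of Gng4 lay wholly under the intervals of 7 other members and overlapped those of Gng11 and Gng8.

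**Figure D3:**
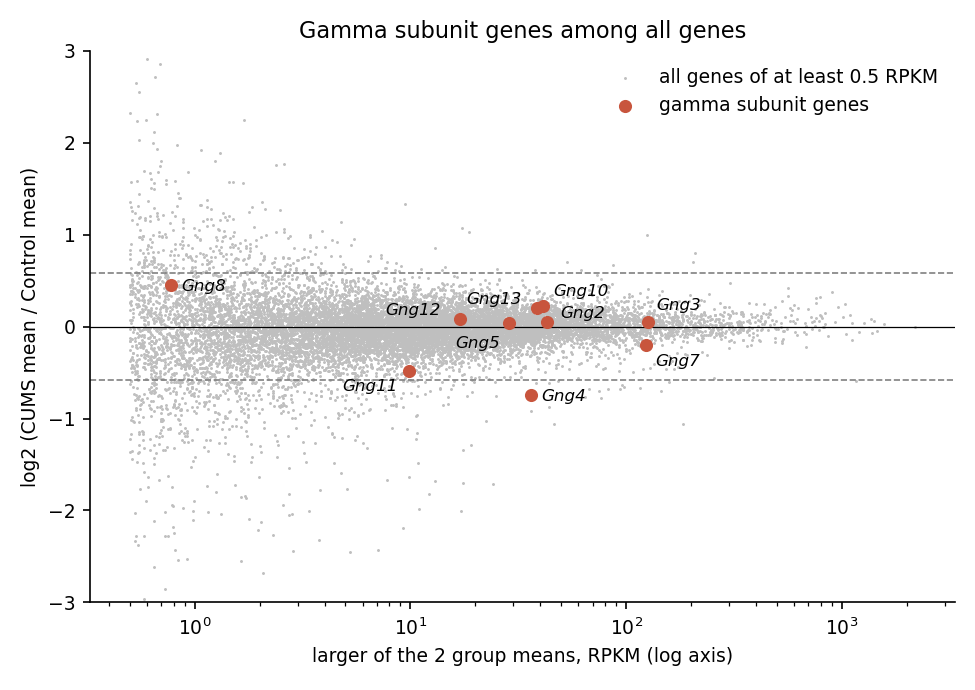
Log2 ratio of CUMS over Control against the level of every gene of at least 0.5 RPKM (grey), with the 10 gamma subunit genes marked and dashed lines at 1.5-fold, without the 39 genes whose ratio exceeds 3 in size. Gng4 sits at the lower edge of the genes of its level, where 60 of 9397 genes of at least 5 RPKM have a lower ratio.

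The 10 members summed to 448 RPKM in Control and 433 RPKM in CUMS, a change of -3.31%. Without Gng4 the remaining 9 summed to 411.9 RPKM in Control and 411.6 RPKM in CUMS. Differences of CUMS minus Control summed to -33.3 RPKM over the 3 lower members and to 18.5 RPKM over the 7 higher ones. Gng7 and Gng3 made up 55.1% of the sum in Control and 54.2% in CUMS. Within that pair the share of Gng7 went from 27.7% to 25.0%, and the share of Gng3 from 27.3% to 29.2%. The share of Gng4 went from 8.08% to 4.99%, and the share of Gng10 from 7.88% to 9.51%. The 5 beta subunit genes summed to 551 RPKM in Control and 565 RPKM in CUMS. That sum includes Gnb5 (80.3 RPKM in Control and 73.8 RPKM in CUMS), which also binds other proteins with a gamma-like domain. It is therefore not only a pool of partners of the gamma subunits.

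**Figure D4:**
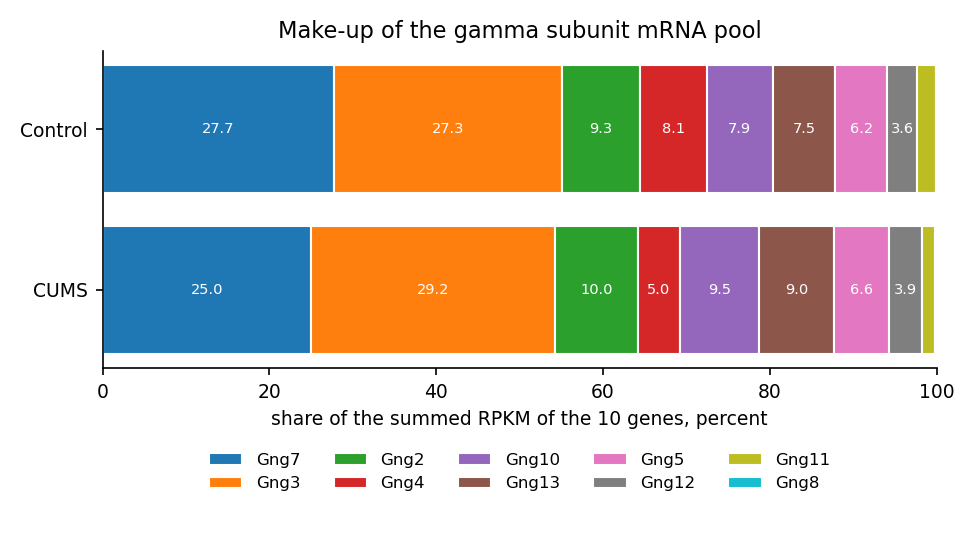
Share of each gamma subunit gene in the summed RPKM of the 10 genes, in percent, in Control and in CUMS. Gng4 takes 8.08% in Control and 4.99% in CUMS, and Gng7 and Gng3 together take more than all other members in both groups.

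The members differ in how much of their sequence is their own, which matters because only uniquely aligned reads were counted and the use of strand was not stated. In GENCODE M21, the exons of Gng4, Gng7, Gng8 and Gng11 shared 0 bases with other genes, and Gng12 shared 125 bases (2.64%). These 5 genes hold all 3 members that were lower in CUMS. Gng3 shared 398 of 1643 exonic bases with Bscl2 on the opposite strand, itself measured at 52.9 RPKM in Control and 48.4 RPKM in CUMS. Gng13 shared 399 of 773 exonic bases with Chtf18, also on the opposite strand, at 0.645 RPKM in Control and 0.595 RPKM in CUMS. Gng10 shared 946 of 1314 exonic bases with the readthrough gene Gm20503, and Gng2 shared 897 of 4390 with the noncoding gene Gm48283. Neither Gm20503 nor Gm48283 is listed in the expression table, so that whether they took any reads from Gng10 or Gng2 is not known. Gng5 shared no exon, but 413 of the 2419 bases of its longest transcript were at least 97% identical to pseudogenes and other copies. The gene length listed with the RPKM values was 535 bases for Gng5 and 438 bases for Gng13, shorter than the sequences compared here. The affected part of their counts may thus be larger than these shares. The values of Gng2, Gng3, Gng5, Gng10 and Gng13 are uncertain to an extent that was not measured.

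The coding sequences are short, from 201 bases in Gng13 to 249 bases in Gng12, which code for 67 and 83 residues. Identity is given here as a percentage of the longer coding sequence. It was 73.3% between Gng4 and Gng2 and 71.6% between Gng3 and Gng4. Gng7, also known from neurons, was less alike, with 62.7% to Gng4 and 57.3% to Gng3. Gng7 was closest to Gng2 with 66.2%, and Gng8 was closest to Gng2 with 70.0%. Gng11 stood farthest from the rest, with 55.7% identity to its closest member, Gng13. The closest pair, Gng4 and Gng2, had ratios of -0.74 and 0.05.

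The partners and targets of the gamma subunits were read from lists holding 65 genes in all. The table listed 61 of them, and 55 had at least 0.5 RPKM in either group. Of these, 31 were lower and 24 were higher in CUMS, with a median ratio of -0.04. Only 1 was past 1.5-fold, the retinal-type gamma subunit Gngt2, with 2.51 RPKM in Control and 1.31 RPKM in CUMS from an estimated 21 and 11 fragments. Its ratio of -0.94 (-2.14 to 0.17) included 0. Of the 4 beta subunits above the minimum, 2 were lower and 2 were higher, and the most abundant, Gnb1, had 237 RPKM in Control and 258 RPKM in CUMS.

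Of the alpha subunits that inhibit adenylyl cyclase or belong to their class (Gi/o), 2 were lower and 3 were higher. The most abundant was Gnao1, the main alpha subunit of brain membranes, with 183 RPKM in Control and 196 RPKM in CUMS. Of the stimulating class, Gnas had 819 RPKM in Control and 836 RPKM in CUMS. Gnal, named above with Gng7, had 52.5 RPKM in Control and 51.2 RPKM in CUMS, a ratio of -0.04 (-0.10 to 0.03). Gna11 led the Gq/11 class, which drives phospholipase C beta, with 57.9 RPKM in Control and 59.5 RPKM in CUMS, and 1 gene of that class was lower and 2 were higher. Both G12/13 genes were lower, led by Gna12 with 37.7 RPKM in Control and 33.1 RPKM in CUMS. None of these alpha subunit genes was past 1.5-fold.

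Among the targets of the beta-gamma dimer, 6 of 9 adenylyl cyclases were lower in CUMS and 3 were higher. The most abundant cyclase was Adcy5, with 84.7 RPKM in Control and 70.0 RPKM in CUMS, a ratio of -0.28 (-0.33 to -0.22). Of the GIRK channel genes above the minimum 1 was lower and 2 were higher, led by Kcnj9 with 45.6 RPKM in Control and 51.7 RPKM in CUMS. Kcnj5 lay under the minimum, with 0.465 RPKM in Control and 0.135 RPKM in CUMS from an estimated 31 and 9 fragments. Its ratio was -1.78 (-3.05 to -0.69). Phospholipase C beta genes were lower in 2 cases and higher in 2, led by Plcb1 with 18.1 RPKM in Control and 17.5 RPKM in CUMS. Of the receptor kinases, not all of which bind the dimer, 4 were lower and 1 was higher. The most abundant, Grk2, had 108 RPKM in Control and 101 RPKM in CUMS. R7 RGS proteins carry a gamma-like domain that binds Gnb5. Of the 5 measured genes of these proteins and their membrane anchors, 2 were lower and 3 were higher. The higher ones include the anchor gene Rgs7bp (ratio 0.06), whose product is not an RGS protein. Rgs9, the most abundant of these, had 32.0 RPKM in Control and 26.3 RPKM in CUMS, a ratio of -0.28 (-0.39 to -0.17). Rgs9 also stands in the list of striatal projection neuron markers below, so that these lists are not separate.

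Markers of other cell types and of neighbouring brain areas also differed between the groups. In bulk tissue, fewer cells of a type and less RNA per cell cannot be told apart. Of the striatal projection neuron markers, which belong to the cells where Gng7 works with Adcy5, 10 of 10 were lower in CUMS, with ratios from -0.46 (Penk) to -0.10 (Tac1). They summed to 562 RPKM in Control and 463 RPKM in CUMS, and no marker was at 0. Gng7 with a ratio of -0.20 lay within that range, and the part of striatal cells in its difference was not tested.

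Of the olfactory bulb markers, 11 of 12 were lower in CUMS and 10 of 12 were lower by more than 1.5-fold (Th, Calb2, Doc2g, Eomes, Tbx21, Sp8, Dlx1, Dlx2, Dlx5 and Trh). The list was drawn up for interneurons, but Eomes and Tbx21 are not interneuron markers. The 12 genes summed to 155 RPKM in Control and 109 RPKM in CUMS, and their median ratio was -0.96. Of the cortical interneuron markers 5 of 10 were lower, and the 3 past 1.5-fold were the genes of GABA synthesis and packaging, Gad1, Gad2 and Slc32a1. That list summed to 1155 RPKM in Control and 1231 RPKM in CUMS. Its most abundant gene, Cck, had 421 RPKM in Control and 565 RPKM in CUMS, a larger rise than that of the sum. Septum and hypothalamus markers were lower in 9 of 10 measured genes and summed, over all 12 listed, to 87.7 RPKM in Control and 29.2 RPKM in CUMS, with 9 past 1.5-fold lower (Prkcd, Magel2, Zic1, Baiap3, Peg10, Trh, Oxt, Lhx8 and Isl1). Pmch was higher by that fold, from an estimated 5 and 8 fragments and with an interval of -1.13 to 2.63 that included 0. Gng4 with a ratio of -0.74 was lower, as were most olfactory bulb, septum and hypothalamus markers. Gad1, Gad2 and Slc32a1 were lower too (-0.60, -0.88 and -0.78), while 5 of the 10 genes of their list were higher. Trh stands in both the olfactory bulb list and the septum and hypothalamus list. The lists were chosen with earlier results of these data known, so that their lower values are no separate support. The part of any of these cells in the difference of Gng4 was not tested.

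Olfactory sensory neuron markers were at low levels in both groups. Omp, which marks mature sensory neurons, had an estimated 48 fragments in Control and 0 in CUMS, where it was listed at the lowest value of the table. Stoml3 had 10 fragments in Control and 1 in CUMS, and Ano2 had 108 and 65. The 6 genes summed to 4.78 RPKM in Control and 1.5 RPKM in CUMS. Gng8 and Gng13, the members known from sensory cells, had higher means in CUMS than in Control, within counting error, while these markers had lower ones. Endothelial and mural cell markers were lower in 4 of 9 genes and summed to 138 RPKM in Control and 125 RPKM in CUMS, with Cldn5 alone past 1.5-fold and a median ratio of 0.01. Of these 9 markers 5 were higher, each with an interval that included 0. The interval lay under 0 in 2 of the 9 and above 0 in 0. Gng11 had a ratio of -0.48, and the part of endothelial cells in its difference was not tested.

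Neocortical excitatory neuron markers were higher in 9 of 10 genes, with Emx1 past 1.5-fold, and summed to 782 RPKM in Control and 976 RPKM in CUMS. Gng3 and Gng2 had ratios of 0.05, below the median ratio of 0.32 of that list. Oligodendrocyte markers were lower in 7 of 8 genes, 3 of them (Mbp, Mobp and Cldn11) past 1.5-fold, and summed to 1880 RPKM in Control and 1281 RPKM in CUMS. Astrocyte markers were lower in 4 of 8 genes and microglia markers in 3 of 8, with none past 1.5-fold in either list. The part of these cell types in the levels of the gamma subunits was not tested.

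**Figure D5:**
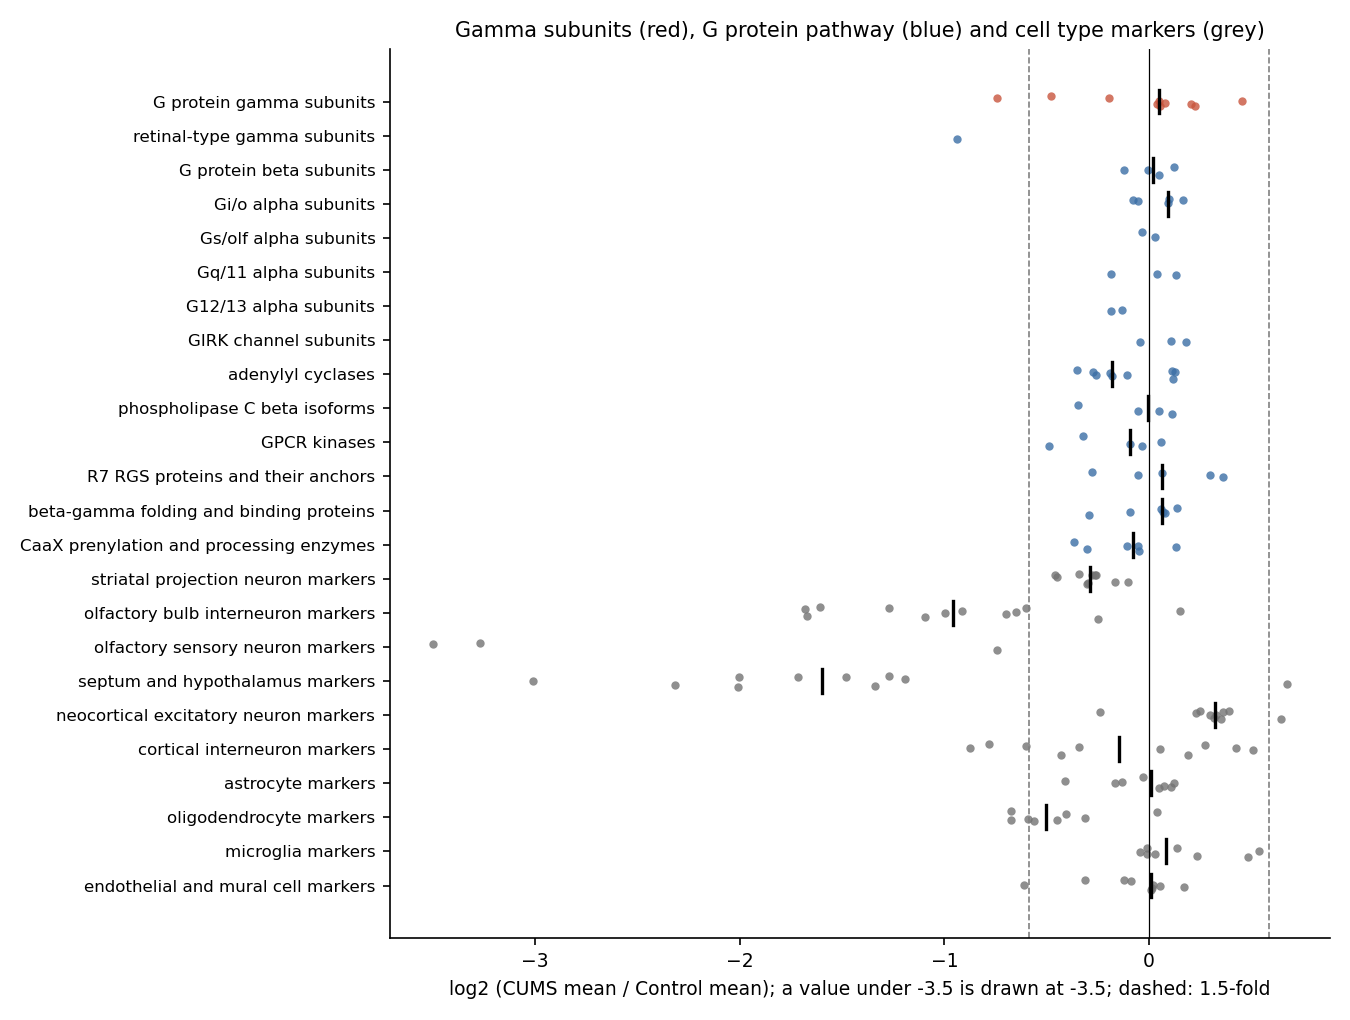
Log2 ratio of CUMS over Control of each measured gene, by list: the gamma subunits (red), their G protein partners and targets (blue) and cell type markers (grey), with a bar at the median of lists of at least 4 genes and dashed lines at 1.5-fold. The gamma subunits have a median of 0.05 (-0.20 over the 5 with little shared sequence). The list labelled olfactory bulb interneuron markers, not all of which mark interneurons, has -0.96 and the neocortical excitatory neuron markers 0.32.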

How the data were processed

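Poly(A) mRNA of 2 Control and 2 CUMS libraries was sequenced as paired reads. The authors trimmed reads with SolexaQA, aligned them to mm10 with TopHat 1.0.12 and Bowtie 0.11.3, counted uniquely aligned reads and deposited RPKM as 1 mean per group. Annotation and strand use were not given in the sources used here. The authors also deposited 3 columns of their own comparison (a log2 ratio, a direction and a NOISeq probability score), which were not used.

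Fragment numbers were estimated here from the spacing of low values (steps of 67.7 and 67.2 RPKM x bases, 86.5% and 86.2% of values within 0.15 of a whole number), assuming equal depth within a group, and are below the read numbers of the study, for a reason not resolved here. Intervals cover counting error only, since no value per library was available. PCR copies could not be removed, so that the intervals may be too narrow even for counting error. The scripts were tested on simulated data. Named were all members, the most abundant gene of each partner list, and list genes past 1.5-fold. Slc17a7, Cck, Gnal, Kcnj5 and the ends of the striatal range (Penk and Tac1) were named after their values had been seen. Members and lists were chosen with earlier results of these data known. Alternatives were pseudocounts, scalings, filters on low values, other folds and greater depths. Python 3.11.15, numpy 2.4.6, scipy 1.17.1, pandas 2.3.3, Biopython 1.88 and BLAST 2.17.0 were used. Gene spans and promoters are from RefSeq (GRCm38.p6), matched by gene identifier.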

Additional observations from a re-analysis of the deposited data

How the results depend on the processing

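No member changed direction under pseudocounts of 1 and 0.1 RPKM or under rescaling of CUMS to a median ratio of 0 or to an equal total. A pseudocount cannot change a sign, and the rescalings shift all ratios by less than the smallest member ratio, so that this says nothing about stability. The count of lower members was 3 under each scaling and filter. The count past the fold threshold was 0 at 2-fold and 3 at a ratio of 5 to 4 (Gng4 and Gng11 lower, Gng8 higher from 8 and 11 fragments), and 1 under each scaling and filter. The median ratio of the members lay between 0.04 and 0.06 under these alternatives. Over the 5 members with little shared sequence, an alternative chosen after seeing the data, it was -0.20, since these hold all 3 lower members and only 2 of the 7 higher ones. With 2 and 4 times the estimated fragments, also chosen after seeing the data, the interval lay above 0 in 2 and 5 members in place of 1, and under 0 in 3 each time. The shares of all genes at those depths were not computed, so that the rise is no result about the members. No paired analysis was possible because each gene has 1 mean for each group and no value per library. Leave-one-out values, limma, edgeR and NOISeq were therefore not run. Depth limits Gng8 most, whose interval spans from -1.0 to 1.97, and Gng11, Gng5 and Gng13 less.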

Other observations

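The enzymes that finish gamma subunits were measured as well. Of the 6 genes that attach or process the lipid anchor, 5 were lower and 1 was higher in CUMS, with none past 1.5-fold and a median ratio of -0.08. Fnta, the alpha chain shared by the enzymes that attach farnesyl and geranylgeranyl groups, had 24.9 RPKM in Control and 23.2 RPKM in CUMS, a ratio of -0.11 (-0.26 to 0.05). Of the 6 measured genes that fold or bind the beta-gamma dimer or its alpha subunit, 2 were lower and 4 were higher, with a median ratio of 0.06. Cct5, a subunit of the chaperonin that folds beta subunits, had 83.7 RPKM in Control and 78.5 RPKM in CUMS.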
